A study of Mus musculus with 9 samples.

Results

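The 10 genes described here are the fibroblast growth factor (FGF) ligand genes *Fgf3*, *Fgf4*, *Fgf5*, *Fgf8*, *Fgf9*, *Fgf10*, *Fgf13*, *Fgf15*, *Fgf17* and *Fgf18*, chosen by name from the 24330 genes of the deposited expression table, which holds 22 FGF genes in all. The RNA came from whole mouse embryos at E9.5, a stage by which, per the study's methods, the neural tube has closed in all wild-type embryos. The groups were KO-NTD, embryos that lacked SR-B1 and had a neural tube defect, KO-N, embryos that lacked SR-B1 and looked normal, and WT embryos. SR-B1 is the lipoprotein receptor encoded by *Scarb1*. All embryos came from intercrosses of heterozygous mice on a mixed C57Bl/6J and 129S2 background, and each group was 3 samples of 3 pooled embryos, labelled female. The deposited files give 1 value per group, in FPKM (fragments mapped per kilobase of a gene's transcript, relative to all mapped fragments), so no difference between groups could be tested against the spread between samples. The error given is the pair of confidence bounds the authors deposited with each value.

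FGFs are secreted signals that bind receptor tyrosine kinases together with heparan sulfate and act mainly through the Ras and MAP kinase relay, which switches on ETS transcription factors and feedback inhibitors such as the Sprouty proteins. In the embryo at this stage they are made by small signalling centres: the tail bud, the midbrain-hindbrain boundary, the anterior neural ridge, the apical ridge of the limb bud and the pharyngeal epithelia. *Fgf13* stands apart from the rest of the 10, because it encodes an intracellular homologue that binds sodium channels and microtubules and is not secreted.

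The genes with the largest differences, *Fgf3* and *Fgf4*, are neighbours on chromosome 7, where *Fgf15* lies next to them. On mm10 the deposited coordinates are chr7:144838612-144843348 for *Fgf3*, chr7:144861386-144865243 for *Fgf4* and chr7:144896532-144900951 for *Fgf15*, all on the plus strand, with 3 exons each in the GENCODE basic annotation. The gaps were 18.0 kb between *Fgf3* and *Fgf4* and 31.3 kb between *Fgf4* and *Fgf15*. RefSeq promoters on GRCm38.p6, the build also called mm10, were matched for 7 of the 10 genes, all but *Fgf8*, *Fgf15* and *Fgf17*. The 250 bases before the start of *Fgf3* (chr7:144838362-144838611) and of *Fgf4* (chr7:144861136-144861385) are shown because these are the genes on which the comparison of KO-NTD with KO-N turns. They are written 5′ to 3′ on the plus strand, and capitals mark the motifs found, the GC box GGGCGG and a TATA-like motif TATATA, the second of which was added to the search after the sequence was seen.
Fgf3: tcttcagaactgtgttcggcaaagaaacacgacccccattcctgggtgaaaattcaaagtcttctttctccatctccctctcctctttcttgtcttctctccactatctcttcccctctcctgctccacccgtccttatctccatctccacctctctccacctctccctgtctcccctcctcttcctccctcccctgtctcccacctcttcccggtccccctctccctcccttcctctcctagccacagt
Fgf4: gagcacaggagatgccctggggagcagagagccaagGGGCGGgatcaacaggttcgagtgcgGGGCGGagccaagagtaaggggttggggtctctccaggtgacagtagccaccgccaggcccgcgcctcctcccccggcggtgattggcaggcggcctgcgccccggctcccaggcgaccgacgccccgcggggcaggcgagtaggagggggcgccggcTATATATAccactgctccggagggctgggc
The sequences differ in composition. The *Fgf4* window had 71.2% G or C, with GC boxes at 214 to 209 and at 188 to 183 bases before the start and overlapping copies of TATATA at 30 to 25 and at 28 to 23. Read on both strands, GGGCGG was found in 32.7% and TATATA in 5.25% of the 32851 promoter windows of this length. The *Fgf3* window held none of the motifs searched and had 55.2% G or C, and 79.2% of its bases were C or T, a share reached by 0.0761% of the windows. Searches of both windows for TATAAA (in 12.4% of all windows), the CDX motif TTTATG (10.8%), the T-box motif AGGTGTGA (1.12%) and the TCF motif CTTTGAT (3.21%) gave no match.

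The remaining genes are spread over the genome, on mm10 at chr5:98254184-98277033 (*Fgf5*), chr19:45736798-45742884 (*Fgf8*), chr14:58072686-58112720 (*Fgf9*), chr13:118714699-118792573 (*Fgf10*), chrX:59062146-59585572 (*Fgf13*), chr14:70636205-70642268 (*Fgf17*) and chr11:33116978-33147400 (*Fgf18*). All 10 are annotated as protein coding. Their loci span 3.86 kb (*Fgf4*) to 523 kb (*Fgf13*). The *Fgf13* locus also contains the microRNA gene *Mir504*, and the other deposited loci overlap no further gene.

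Some facts of the whole series bear on every value below. *Scarb1* was at 3.12 FPKM in KO-NTD and at 3.34 FPKM in KO-N, against 17.1 FPKM in WT embryos. Although the pools are labelled female, the 4 Y-linked genes examined were measured in all groups, *Eif2s3y*, the highest of them, at 5.12 FPKM in KO-NTD and at 5.69 FPKM in KO-N, against 10.5 FPKM in WT embryos, and *Xist* at 83.7 FPKM in KO-NTD and at 73.8 FPKM in KO-N, against 58.3 FPKM in WT. Beside the KO groups, the full table has a column headed Control, whose makeup is not stated. Among the 833 genes that have a WT value, 62 differed by over 1.2-fold between this column and WT, *Scarb1* (12.4 FPKM in Control) among them, so the column is called Control here and not WT. Differences are given as the log2 ratio of FPKM + 0.1, with a 95% interval computed from the bounds read as 2 standard deviations.

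The FGF ligand genes differed little between KO-NTD and KO-N embryos, except for *Fgf3* and *Fgf4*, which had higher values in KO-NTD. The value was higher in KO-NTD for 8 of the 10 genes and lower for *Fgf18* and, by a margin that changed sign when the columns were rescaled, for *Fgf13*, where 36.1% of all genes had a higher and 44.7% a lower value. Among the 8 genes that averaged 0.5 FPKM or more over the KO groups, 6 had a higher value in KO-NTD, against 41.7% of the 13569 genes at that level. At least 1.5-fold higher in KO-NTD were 2 of the 10 genes, and none was 1.5-fold lower. Among all genes 2.26% were 1.5-fold higher and 1.9% 1.5-fold lower. The bounds overlapped between the groups for all 10 genes, and bounds were apart for 0.753% of all genes with the higher value in KO-NTD and for 0.662% with the lower. The interval of the log2 fold excluded 0 for 1 gene, *Fgf3*, as it did upwards for 1.41% and downwards for 1.68% of all genes. The median log2 fold was 0.17 over the 10 genes, 0.15 over the 8 at 0.5 FPKM and -0.02 over all genes at that level.

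**Figure D1:**
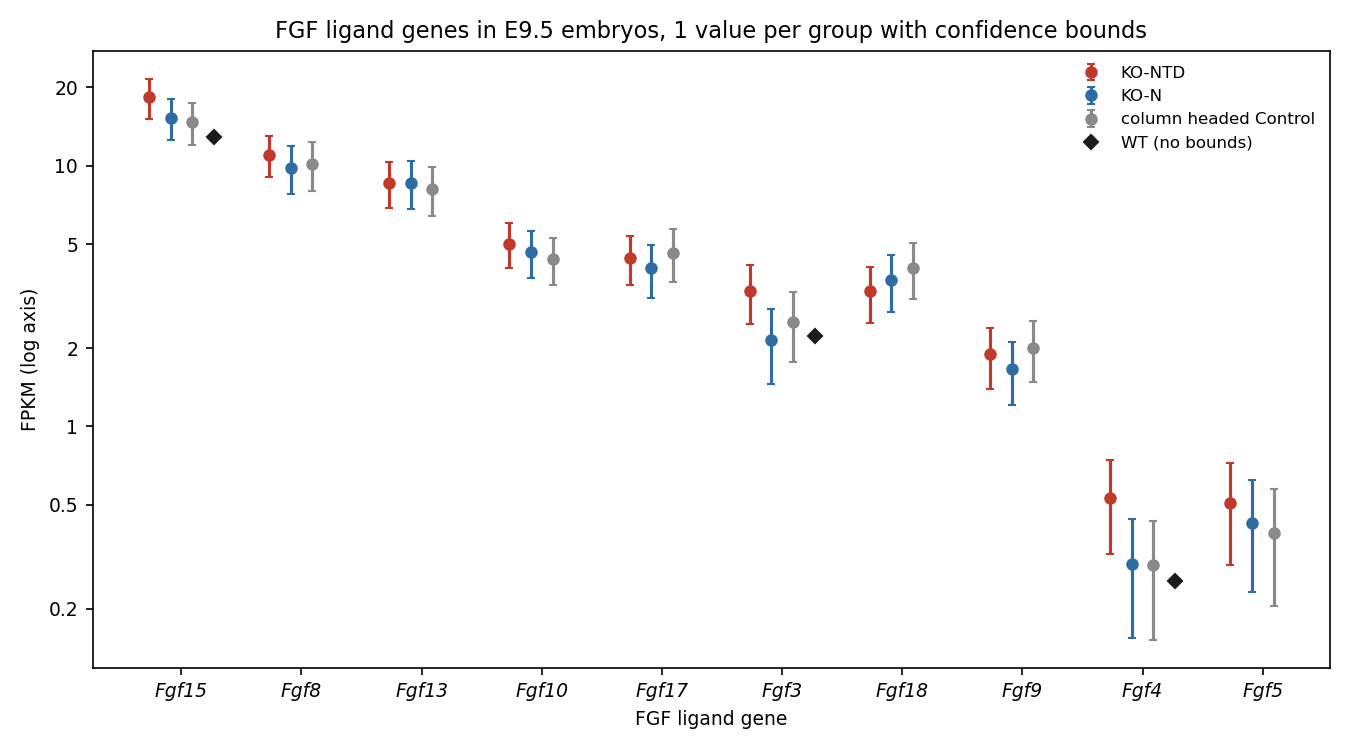
FPKM (log axis) of the 10 FGF ligand genes, ordered by level, with points for the group value and bars for the deposited confidence bounds in KO-NTD, KO-N and the column headed Control. Diamonds are WT values, given for 3 genes without bounds. The bounds of KO-NTD and KO-N overlap for every gene, and the levels run from 18.3 FPKM (*Fgf15*) to 0.509 FPKM (*Fgf5*) in KO-NTD.

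The levels of the genes differed far more from each other than between groups. *Fgf15*, the mouse counterpart of human FGF19, was the highest in both KO groups, and its bounds were apart from those of the next gene in each column of the KO groups. *Fgf8* and *Fgf13* followed, with bounds that overlapped each other. *Fgf10*, *Fgf17*, *Fgf3* and *Fgf18* came next in KO-NTD, each overlapping its neighbour in this order, and *Fgf9* lay below them with bounds apart from those of *Fgf18*. *Fgf4* and *Fgf5* were the lowest in both groups and could not be told apart from each other. In KO-N embryos *Fgf3* stood after *Fgf18* and overlapped *Fgf9*. The bounds reached 17.6% to 42.3% of the value to either side in KO-NTD and 18.2% to 48.1% in KO-N, and were widest for the lowest genes. FPKM are per length of transcript, so levels can be compared between genes.

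Of the tail bud ligands, *Fgf3* and *Fgf4* had the largest differences of the 10 genes. *Fgf3*, which acts in the tail and in the hindbrain that induces the inner ear, was at 3.31 FPKM (bounds 2.47 to 4.15) in KO-NTD embryos, 2.15 FPKM (1.46 to 2.83) in KO-N embryos and 2.52 FPKM (1.76 to 3.27) in the Control column. The log2 fold, KO-NTD over KO-N, was 0.60 (95% interval 0.05 to 1.16). *Fgf4*, which keeps presomitic mesoderm undifferentiated together with *Fgf8* and is also made in the limb ridge, was at 0.534 FPKM (0.325 to 0.743) in KO-NTD, 0.298 FPKM (0.155 to 0.441) in KO-N and 0.293 FPKM (0.152 to 0.435) in Control. Its log2 fold was 0.67 (-0.02 to 1.36), and 0.84 when no pseudocount was added. For both genes KO-NTD was the highest of the columns while its bounds reached into those of KO-N. Both passed 1.5-fold by a small margin, and with a pseudocount of 1 FPKM the log2 folds were 0.45 for *Fgf3* and 0.24 for *Fgf4* and neither passed.

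*Fgf8*, *Fgf17* and *Fgf18* form a subfamily of similar proteins that is expressed both in the tail bud and at the midbrain-hindbrain boundary, where *Fgf8* is the organizing signal. *Fgf8* was at 11.0 FPKM (9.03 to 13.0) in KO-NTD, 9.85 FPKM (7.78 to 11.9) in KO-N and 10.2 FPKM (7.99 to 12.4) in Control. *Fgf17*, which supports growth of the midbrain and cerebellar primordium, was at 4.44 FPKM (3.50 to 5.39), 4.04 FPKM (3.11 to 4.96) and 4.64 FPKM (3.57 to 5.70) in the same order. *Fgf18*, later a regulator of skeletal and lung growth, was at 3.30 FPKM (2.49 to 4.11), 3.66 FPKM (2.75 to 4.57) and 4.07 FPKM (3.08 to 5.06). The values of the KO groups lay within each other's bounds for all of them. The log2 folds, KO-NTD over KO-N, were 0.16 (-0.23 to 0.55) for *Fgf8*, 0.14 (-0.30 to 0.57) for *Fgf17* and -0.15 (-0.63 to 0.33) for *Fgf18*. Their summed level was 18.8 FPKM in KO-NTD, 17.5 FPKM in KO-N and 18.9 FPKM in Control.

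*Fgf15* completes the brain organizer ligands, being made in the midbrain, the diencephalon and the pharyngeal region of the embryo, and it is known in the adult as the gut hormone that restrains bile acid synthesis. It was at 18.3 FPKM (15.1 to 21.6) in KO-NTD embryos, 15.3 FPKM (12.5 to 18.1) in KO-N embryos and 14.7 FPKM (12.0 to 17.4) in Control, a log2 fold, KO-NTD over KO-N, of 0.26 (-0.10 to 0.61). Its bounds overlapped between all columns. Summed with its neighbours *Fgf3* and *Fgf4* it gave 22.2 FPKM in KO-NTD, 17.7 FPKM in KO-N and 17.5 FPKM in Control.

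The bounds of the KO groups also overlapped for the remaining ligands. *Fgf10*, made by limb, lung and second heart field mesenchyme, was at 5.03 FPKM (4.04 to 6.01) in KO-NTD, 4.66 FPKM (3.72 to 5.60) in KO-N and 4.38 FPKM (3.48 to 5.28) in Control. *Fgf9*, an epithelial ligand that acts on mesenchyme, was at 1.89 FPKM (1.39 to 2.39), 1.66 FPKM (1.21 to 2.11) and 2.01 FPKM (1.48 to 2.53) in that order. Their log2 folds, KO-NTD over KO-N, were 0.11 (-0.28 to 0.50) for *Fgf10* and 0.18 (-0.33 to 0.69) for *Fgf9*, and differences inside these intervals were not detectable. *Fgf5*, a marker of the epiblast and later a brake on hair growth, was at 0.509 FPKM (0.294 to 0.725) in KO-NTD, 0.428 FPKM (0.231 to 0.624) in KO-N and 0.390 FPKM (0.205 to 0.575) in Control. The intracellular *Fgf13* had nearly equal values, 8.61 FPKM (6.86 to 10.4) in KO-NTD, 8.62 FPKM (6.85 to 10.4) in KO-N and 8.13 FPKM (6.40 to 9.85) in Control. The log2 folds were 0.21 (-0.52 to 0.93) for *Fgf5* and -0.0021 (-0.41 to 0.40) for *Fgf13*.

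**Figure D2:**
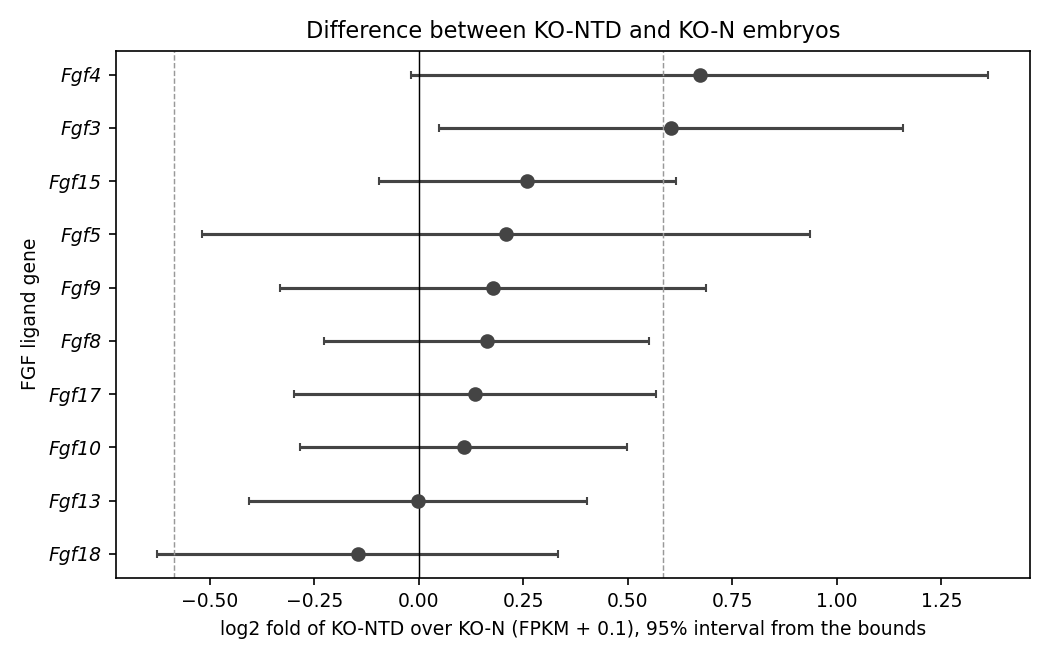
Log2 fold, KO-NTD over KO-N, for each FGF ligand gene (points) with the 95% interval from the bounds (bars). Dashed lines mark 1.5-fold in either direction, which the points of *Fgf4* (0.67) and *Fgf3* (0.60) pass, and the interval lies above 0 for *Fgf3*.

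By the tissue that makes them, the ligands overlapped too much to separate. The median log2 fold, KO-NTD over KO-N, was 0.16 for the tail bud ligands *Fgf3*, *Fgf4*, *Fgf8*, *Fgf17* and *Fgf18*, and 0.15 for the brain organizer ligands *Fgf8*, *Fgf15*, *Fgf17* and *Fgf18*. It was 0.17 for the limb ligands *Fgf4*, *Fgf8*, *Fgf9* and *Fgf10* and 0.21 for the pharyngeal ligands *Fgf3*, *Fgf8*, *Fgf10* and *Fgf15*. These classes share members, above all *Fgf8*, and each median was positive. All 10 genes summed to 57.0 FPKM in KO-NTD, 50.7 FPKM in KO-N and 51.3 FPKM in Control.

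A WT value was given for *Fgf3*, *Fgf4* and *Fgf15*, the chromosome 7 neighbours. WT values come only with genes that the authors' comparison tables hold, and those tables list the genes the authors marked as significant, so these comparisons with WT are not independent of a difference and are given as values only. The authors' table of KO-NTD against KO-N also holds *Fgf3* and *Fgf4*, and the overlap of their bounds does not show that the groups were alike. *Fgf3* was at 3.31 FPKM in KO-NTD and at 2.15 FPKM in KO-N, against 2.22 FPKM in WT embryos, *Fgf4* at 0.534, 0.298 and 0.256 FPKM and *Fgf15* at 18.3, 15.3 and 12.9 FPKM. For each of them KO-NTD was the highest, and KO-N lay nearer to WT than to KO-NTD, by a small margin for *Fgf15*. The log2 folds over WT were 0.56 in KO-NTD and -0.05 in KO-N for *Fgf3*, 0.83 in KO-NTD and 0.16 in KO-N for *Fgf4*, and 0.50 in KO-NTD and 0.24 in KO-N for *Fgf15*.

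Against the Control column, 1 of the 10 genes, *Fgf4*, differed by at least 1.5-fold in KO-NTD (log2 fold 0.69), as did 3.73% of all genes in either direction. In KO-N no ligand gene differed from Control by 1.5-fold, where 2.09% of all genes did. Bounds overlapped for all 10 genes in both comparisons, and were apart for 1.15% of all genes between KO-NTD and Control and for 0.608% between KO-N and Control. The median log2 fold over Control was 0.16 in KO-NTD and -0.02 in KO-N. Both comparisons share the Control values. KO-NTD had the highest of the 3 columns for 6 of the 10 genes, Control for *Fgf9*, *Fgf17* and *Fgf18* and KO-N for *Fgf13*. Among all genes that averaged 0.5 FPKM or more, KO-NTD was highest for 31.5%. The sets are unlike, because the 6 include *Fgf4* and *Fgf5*, which averaged less than 0.5 FPKM.

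**Figure D3:**
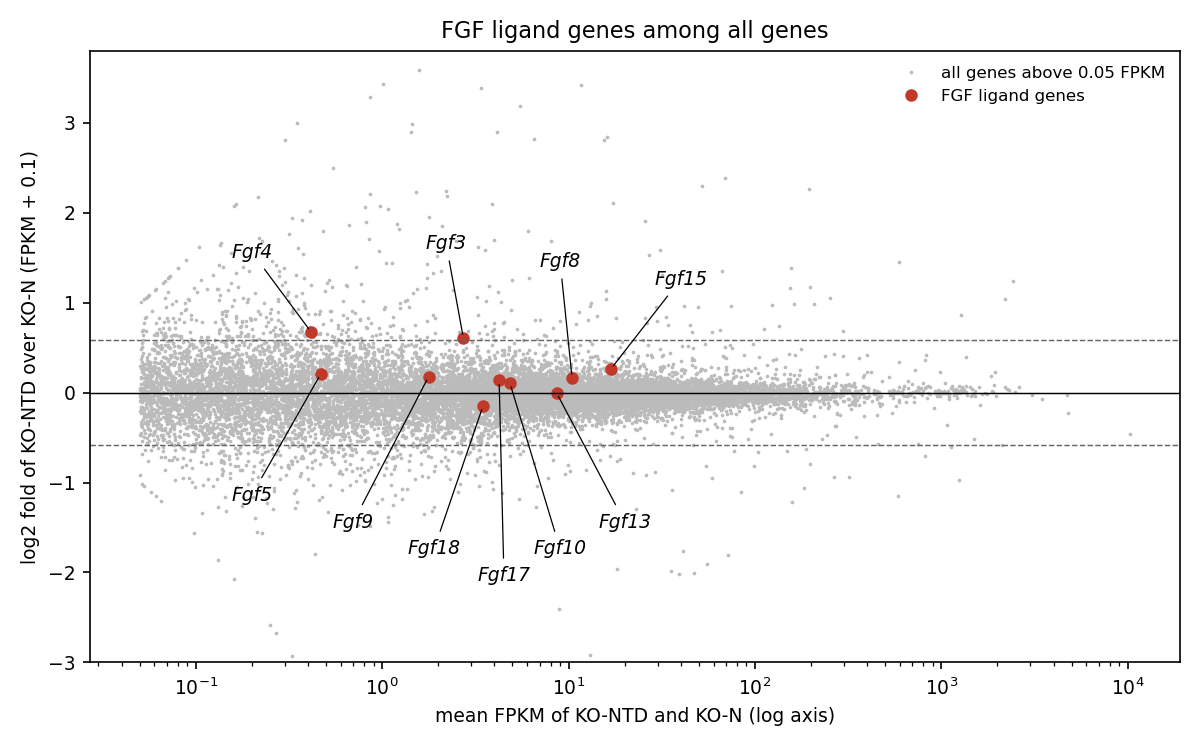
Log2 fold, KO-NTD over KO-N, against the mean FPKM of both groups (log axis), with grey points for all genes above 0.05 FPKM and red points for the FGF ligand genes, and dashed lines at 1.5-fold. *Fgf4* and *Fgf3* lie just above the upper line and the other ligands between the lines, and 120 genes with folds beyond the axis are not drawn.

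Other genes around the chromosome 7 cluster had near equal values. Within 500 kb there were 8 other genes that averaged 0.5 FPKM or more, and their log2 folds, KO-NTD over KO-N, ran between -0.18 and 0.08, with overlapping bounds for all 8. *Ano1*, a chloride channel gene before *Fgf3*, was at 2.67 FPKM in KO-NTD against 2.82 FPKM in KO-N. Past *Fgf15*, *Oraov1* was at 5.23 FPKM in KO-NTD against 5.05 FPKM in KO-N, and *Ccnd1*, which encodes cyclin D1, at 92.7 FPKM in KO-NTD against 105 FPKM in KO-N. These neighbours were named after their values were seen. *Cttn* and *Shank2*, which are among the 8, share 1 deposited locus with microRNA genes.

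**Figure D4:**
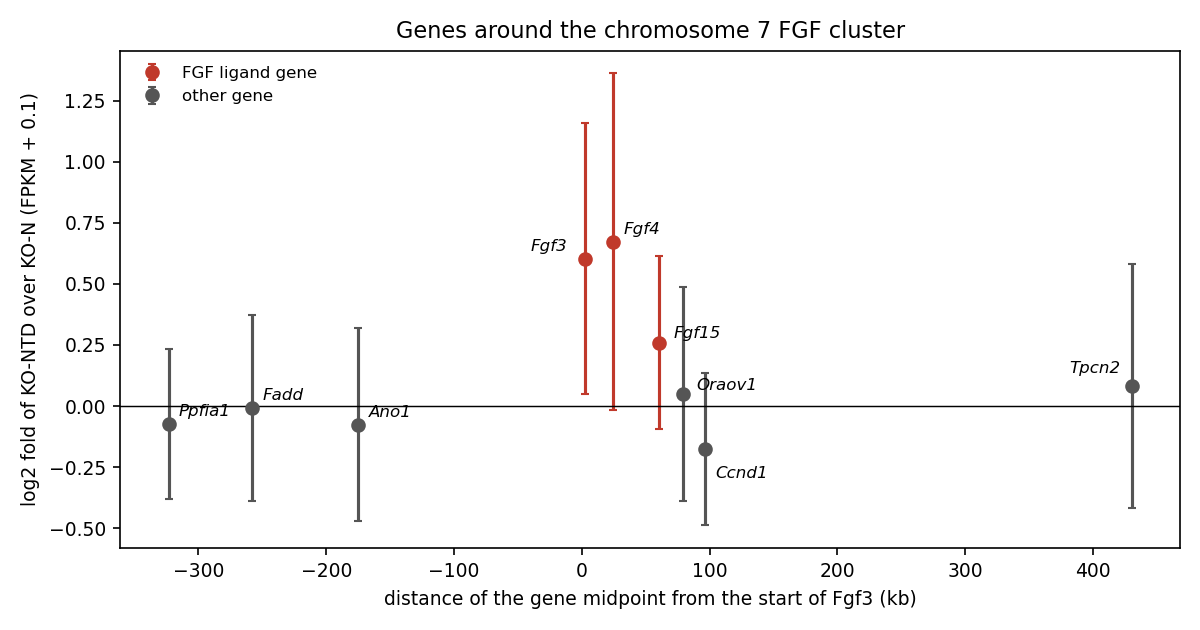
Log2 fold, KO-NTD over KO-N, of genes around the chromosome 7 cluster, by the distance of the gene's midpoint from the start of *Fgf3* in kb, with bars for the 95% interval. The 3 ligand genes (red) have folds of 0.26 to 0.67 and the other genes (grey) lie between -0.18 and 0.08, with *Cttn* and *Shank2*, which share a locus, not drawn.

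The other 12 FGF genes were low, with a sum of 2.44 FPKM in KO-NTD against 2.73 FPKM in KO-N. *Fgf14*, *Fgf11* and *Fgf12*, intracellular homologues like *Fgf13*, were the highest, *Fgf14* at 0.849 FPKM in KO-NTD against 1.05 FPKM in KO-N, *Fgf11* at 0.491 and 0.543 FPKM and *Fgf12* at 0.282 and 0.345 FPKM in the same order. None passed 1.5-fold, and the lower bound was 0 in both KO groups for 6 of the 12.

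Of the 7 receptor and co-receptor genes, 1 was past 1.5-fold with bounds apart. *Klb*, the co-receptor through which *Fgf15* signals in liver, was at 0.582 FPKM (0.365 to 0.800) in KO-NTD embryos, 0.182 FPKM (0.0859 to 0.278) in KO-N embryos, against 0.394 FPKM in WT. Its log2 fold, KO-NTD over KO-N, was 1.28 (0.62 to 1.93). *Fgfr4*, its partner receptor, was at 1.44 FPKM in KO-NTD against 1.11 FPKM in KO-N, with overlapping bounds. The main receptors of the embryo were much higher and near equal, *Fgfr1* at 31.7 FPKM in KO-NTD against 34.4 FPKM in KO-N, *Fgfr2* at 22.8 and 24.2 FPKM and the decoy receptor *Fgfrl1* at 11.8 and 12.4 FPKM. The median over the 5 receptor genes that averaged 0.5 FPKM or more was -0.08.

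None of the 18 relay genes, 19 target and feedback genes or 18 heparan sulfate and ligand handling genes was past 1.5-fold in either direction, and no bounds were apart. Few genes of any kind were, as 2.26% of all genes were 1.5-fold higher and 1.9% lower. Bounds were apart for 0.753% upwards and 0.662% downwards. Of the relay genes, *Nras* was at 69.4 FPKM in KO-NTD against 72.7 FPKM in KO-N. Of the 19 target and feedback genes, 14 had a higher and 5 a lower value in KO-NTD. Among all genes 36.1% had a higher and 44.7% a lower value, and 41.7% had a higher value among those that averaged 0.5 FPKM or more. The median log2 fold was 0.07 over the 18 target and feedback genes that averaged 0.5 FPKM or more. *Dusp6*, a phosphatase induced by FGF signals, was at 41.9 FPKM in KO-NTD against 41.0 FPKM in KO-N, *Flrt3* at 45.1 and 37.8 FPKM and the inhibitor *Spred1* at 32.8 and 34.9 FPKM. The interval excluded 0 for 1 target gene, the ETS factor *Etv4* (9.47 FPKM in KO-NTD against 7.35 FPKM in KO-N, log2 fold 0.36, 0.01 to 0.72). *Gpc3*, a glypican, was at 254 FPKM in KO-NTD against 236 FPKM in KO-N, the sulfatase gene *Sulf2* at 60.0 and 64.4 FPKM and the syndecan *Sdc1* at 48.9 and 52.5 FPKM. In this list the interval excluded 0 for *Fgfbp3*, an FGF binding protein, at 9.96 FPKM in KO-NTD against 12.9 FPKM in KO-N (log2 fold -0.37, -0.72 to -0.01). *Etv4*, *Fgfr4* and *Fgfbp3* were named after their values were seen.

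Markers of the tissues that make the ligands did not all lie on the same side. Of the 17 tail bud genes, 5 were past 1.5-fold higher in KO-NTD and none lower, with bounds apart for 4 and a median log2 fold of 0.32. *Cdx4* was at 17.6 FPKM in KO-NTD and at 8.80 FPKM in KO-N, against 13.8 FPKM in WT, and *Cdx2* at 14.9, 7.93 and 11.1 FPKM in these groups. *Evx1* was at 4.49 FPKM in KO-NTD against 2.66 FPKM in KO-N. *Cdx4*, *Cdx2* and *Evx1*, the genes of the list with the largest folds, were lowest in KO-N, for *Evx1* beside Control (3.71 FPKM), as it has no WT value. *Fgf3* also had its lowest value in KO-N, at 2.15 FPKM, against 2.22 FPKM in WT and 2.52 FPKM in Control. Its KO-N bounds (1.46 to 2.83) held both of those values, so this order cannot be told from error. *Fgf4* was not lowest in KO-N, at 0.298 FPKM against 0.256 FPKM in WT and 0.293 FPKM in Control. The 17 genes summed to 151 FPKM in KO-NTD, 122 FPKM in KO-N and 145 FPKM in Control. The 12 midbrain-hindbrain genes had a median of -0.04, with 2 past 1.5-fold lower and no bounds apart. Over genes that averaged 0.5 FPKM or more, the median was -0.05 for the limb genes (16 of 17). It was -0.03 for the pharyngeal and second heart field genes (15 of 16). *En1* was at 5.73 FPKM in KO-NTD against 4.60 FPKM in KO-N, *En2* at 4.52 and 5.63 FPKM and *Lmx1b* at 3.11 and 3.97 FPKM. In RNA of whole embryos fewer cells of a type and less RNA per cell cannot be told apart.

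**Figure D5:**
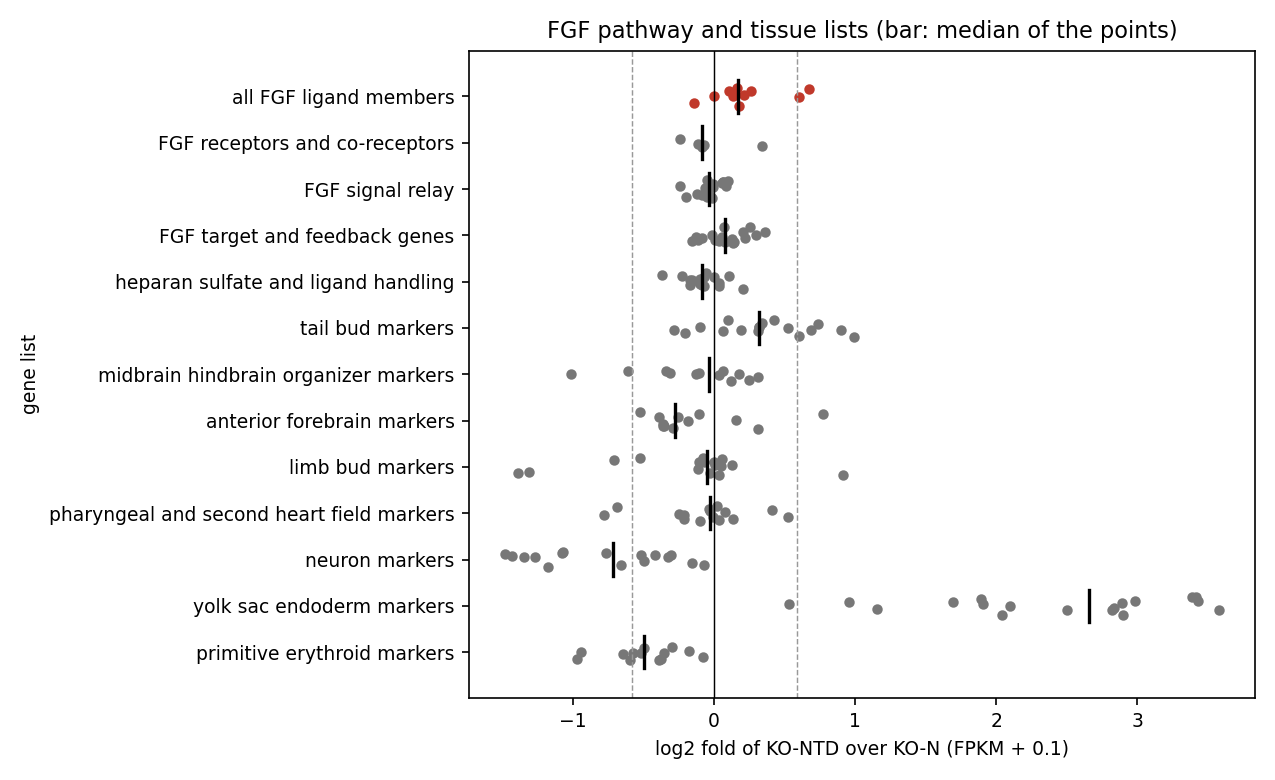
Log2 fold, KO-NTD over KO-N, for the genes of each list (points) with the median of the points (bar). The ligand row holds all 10 genes, the other rows the genes that averaged 0.5 FPKM or more, which leaves out *Klb* (1.28). The medians run from -0.71 (neuron markers) to 2.66 (yolk sac endoderm markers), with the ligands at 0.17.

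Markers of other tissues differed between the pools far more than the ligands did. Their lists were chosen with earlier results of these data known. Of the 18 yolk sac endoderm genes, 17 were past 1.5-fold higher in KO-NTD and bounds were apart for all 18, and the list summed to 230 FPKM in KO-NTD, 64.4 FPKM in KO-N and 117 FPKM in Control. The study had reported higher levels in KO-NTD for several of these genes, among them *Apoa1*, *Apob* and *Cubn*. This count is therefore not independent of the earlier result and is a description only. *Apoa4*, *Slc2a2* and *Apoa1* had the largest folds, *Apoa1* at 21.4 FPKM in KO-NTD against 1.91 FPKM in KO-N. Of the 16 neuron genes, 9 were past 1.5-fold lower with bounds apart, and the sums were 52.4 FPKM in KO-NTD, 79.3 FPKM in KO-N and 70.9 FPKM in Control, with *Elavl3* at 0.896 FPKM in KO-NTD against 2.44 FPKM in KO-N. The 13 primitive erythroid genes summed to 3091 FPKM in KO-NTD, 4725 FPKM in KO-N and 5711 FPKM in Control, with 4 past 1.5-fold lower, among them *Hbb-y*, an embryonic globin. No gene of these lists was at 0 in any column. The part of such differences between pools in the values of *Fgf3*, *Fgf4* and *Klb* was not tested. The 12 reference genes had a median log2 fold of -0.02, with none past 1.5-fold.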

How the data were processed

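RNA-seq was made from 9 samples, 3 per group. Per the labels and the study's methods, poly-A RNA of each pool was sequenced in strand-specific libraries. The submitters' processing notes name TopHat2 0.7, Cufflinks 2.2.1 and the build mm10. The authors deposited 1 FPKM value per group with lower and upper confidence bounds. The gene annotation is not stated in any source read here. The study's supplement gives read totals per sample, but the deposited files hold no counts, so no interval was computed from depth. The authors' 3 comparison tables hold 128 genes for KO-N against WT, 789 for KO-NTD against WT and 780 for KO-NTD against KO-N, with FPKM, fold changes, test values, p-values and q-values. From them the WT FPKM, the KO-NTD FPKM for the log2 folds over WT, and the listing of the ligand genes were used. Their fold changes, test values, p-values and q-values were not used.

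The planned limma fit was not possible with 1 value per group. Log2 ratios of FPKM + 0.1 were computed in Python 3.11.15 with pandas 2.3.3 and numpy 2.4.6, which understates the change of low genes, and figures were drawn with matplotlib 3.10.9. A deposited bound was read as 2 standard deviations, and intervals reach 1.96 standard errors to each side. They cover the error modelled by Cufflinks, and nothing in the files shows the spread between pools. The calculation was tested on simulated data. Of 24357 rows, 27 whose names had become dates were left out. Medians of the pathway and marker lists used genes that averaged 0.5 FPKM or more, and those of the ligand classes by tissue used all their members.

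The 10 genes and the lists were chosen with earlier results of these data known. Named were all 10 genes, the list genes whose bounds were apart (pathway lists), the 3 highest (pathway lists) or up to 3 with the largest fold at a mean of at least 1 FPKM (tissue lists), *Scarb1*, *Xist* and Y-linked genes, with exceptions said in the text. Some genes that this rule names are not reported here. Alternatives were other pseudocounts, scalings, filters, thresholds and bound widths, and Control in place of WT.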

Additional observations from a re-analysis of the deposited data

How the results depend on the processing

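The count of ligand genes at least 1.5-fold higher in KO-NTD than in KO-N was 2, and it fell to 0 with a pseudocount of 1 FPKM or a 2-fold threshold and to 1 (*Fgf3*) when only genes with a mean of at least 0.5 or 1 FPKM were kept. With bounds narrowed to 1 standard deviation, 3 genes (*Fgf3*, *Fgf4* and *Fgf15*) had bounds apart, against 0 as deposited. Of 83 values recomputed under an alternative, the other 78 were counts within 1.5 times the first value or values that moved by less than their error. The log2 fold of *Fgf13*, -0.0021 as deposited, changed sign to 0.0046 with columns rescaled to a common sum and to 0.022 with columns rescaled to a common median ratio, and no other ligand gene changed sign between KO-NTD and KO-N. The median log2 fold ranged between 0.12 and 0.19. Omitting the pseudocount was chosen after the data were seen. No paired analysis was possible because each group has 1 value, and leaving out each replicate in turn was not run for the same reason. The values of *Fgf4* and *Fgf5*, under 1 FPKM, have the widest bounds, which limits what can be read from them.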

Other observations

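Other developmental genes differed in ways the ligands did not show. Of the 17 limb bud genes, 4 were past 1.5-fold lower in KO-NTD than in KO-N and 1 was past 1.5-fold higher. *Lhx9* was at 0.553 FPKM in KO-NTD against 1.61 FPKM in KO-N and *Hoxd11*, a distal limb gene, at 1.02 FPKM in KO-NTD against 2.68 FPKM in KO-N. *Tbx4*, which marks the hindlimb field and also the allantois, was at 6.45 FPKM in KO-NTD and at 3.38 FPKM in KO-N, against 3.60 FPKM in WT. Of the 10 allantois and extraembryonic mesoderm genes, 4 were past 1.5-fold higher in KO-NTD and bounds were apart for 4, with *Cdx2*, *Phlda2* and *Tbx4* in both counts, *Phlda2* at 40.1 FPKM in KO-NTD and at 13.8 FPKM in KO-N, against 16.4 FPKM in WT. The 12 anterior forebrain genes had a median log2 fold of -0.27, and bounds were apart for 1, *Lhx2*, at 7.88 FPKM in KO-NTD against 11.4 FPKM in KO-N. Among the pharyngeal genes, *Pax1* was at 4.77 FPKM in KO-NTD against 8.29 FPKM in KO-N and *Hand1* at 51.4 FPKM in KO-NTD against 35.7 FPKM in KO-N. *Hand1* is also in the allantois and extraembryonic mesoderm list, where its bounds were among those apart, and in a list of placenta markers. The pharyngeal ligands *Fgf3*, *Fgf8*, *Fgf10* and *Fgf15* summed to 37.7 FPKM in KO-NTD, 32.0 FPKM in KO-N and 31.8 FPKM in Control.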
